A study of Mus musculus with 4 samples.

Results

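The genes described here encode the machinery that copies DNA and divides cells. The list holds 39 mouse genes, chosen by name with earlier results of these data known. A gene was measured when the array held at least 1 probe set that names it and no other gene, which was so for 36 of the 39, out of 8251 genes measured in that way. The 36 genes had 52 probe sets among 12422. Ccnb1 and Bub1b had no such probe set, and Tyms lay only on 2 probe sets that it shares with its pseudogene Tyms-ps. For each gene the probe set with the highest mean over all arrays stands for the gene unless another is named. The series holds 4 Affymetrix arrays of pooled aortic total RNA from adult male mice of the C57BL/6J strain. Of these, 2 (replicates 1 and 2) came from mice given rosiglitazone, a PPARγ agonist dosed at 25 mg/kg per day, for 21 days, and 2 (replicates 3 and 4) from mice given vehicle for 21 days. The sources used here give neither the number of mice per pool nor whether each array had its own pool. The spread between arrays of a group may therefore be technical, and the p-values rest on that spread.

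A resting cell enters the cycle when D-type cyclins and Cdk4 phosphorylate the retinoblastoma protein, which frees E2F factors to switch on the genes of S phase. The MCM complex is loaded on origins as the replicative helicase, the clamp PCNA holds the polymerases on the template, and ribonucleotide reductase and thymidylate synthase supply deoxynucleotides. Cyclin A, the B-type cyclins, Cdk1 and the Polo and Aurora kinases then drive mitosis. Most smooth muscle and endothelial cells of the adult aortic wall are quiescent. In bulk tissue, a lower signal from these genes cannot be assigned to fewer cycling cells or to less transcript per cell.

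The arrays carry no detection calls in the table used here, so signal was set against background in 2 ways. A floor at an intensity of 148, the 20th percentile of all values, and a filter at a mean intensity of 414, the 40th percentile, were applied to the whole table. The 15 control probe sets for Bacillus subtilis genes gave a second gauge. Their 60 values ran from 18 to 992 with a median of 98, and 39 of them lay under the floor and 8 at or above the filter. Of the 36 measured replication and mitosis genes, 20 (55.6%) had a mean at or above the filter and were tested, against 5466 of 8251 genes (66.2%) on the array. On all 4 arrays above the filter lay 18 of the 36 (50.0%), against 52.8% of all genes, and 15 of the 36 (41.7%) lay above the brightest bacterial control probe set, whose mean was 705, against 52.1% of all genes. By role, the filter was passed by all 6 G1 cyclins and kinases, 2 of 3 genes of G1 to S control, 4 of 6 MCM subunits, 2 of 6 fork genes, 0 of 2 ribonucleotide reductase genes, 3 of 6 cyclins and kinases of G2 and mitosis, 2 of 6 spindle, checkpoint and chromosome genes and Ccng1. Whether detection differed between roles was not tested. The 16 genes under the filter were Myc, Mcm4, Mcm6, Pola1, Prim1, Lig1, Dnmt1, Rrm1, Rrm2, Cdk1, Aurka, Aurkb, Bub1, Kif11, Birc5 and Top2a. Nearest to the filter were Rrm1, just outside it with a mean of 393, and Mcm7, just inside it with a mean of 418.

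**Figure D1:**
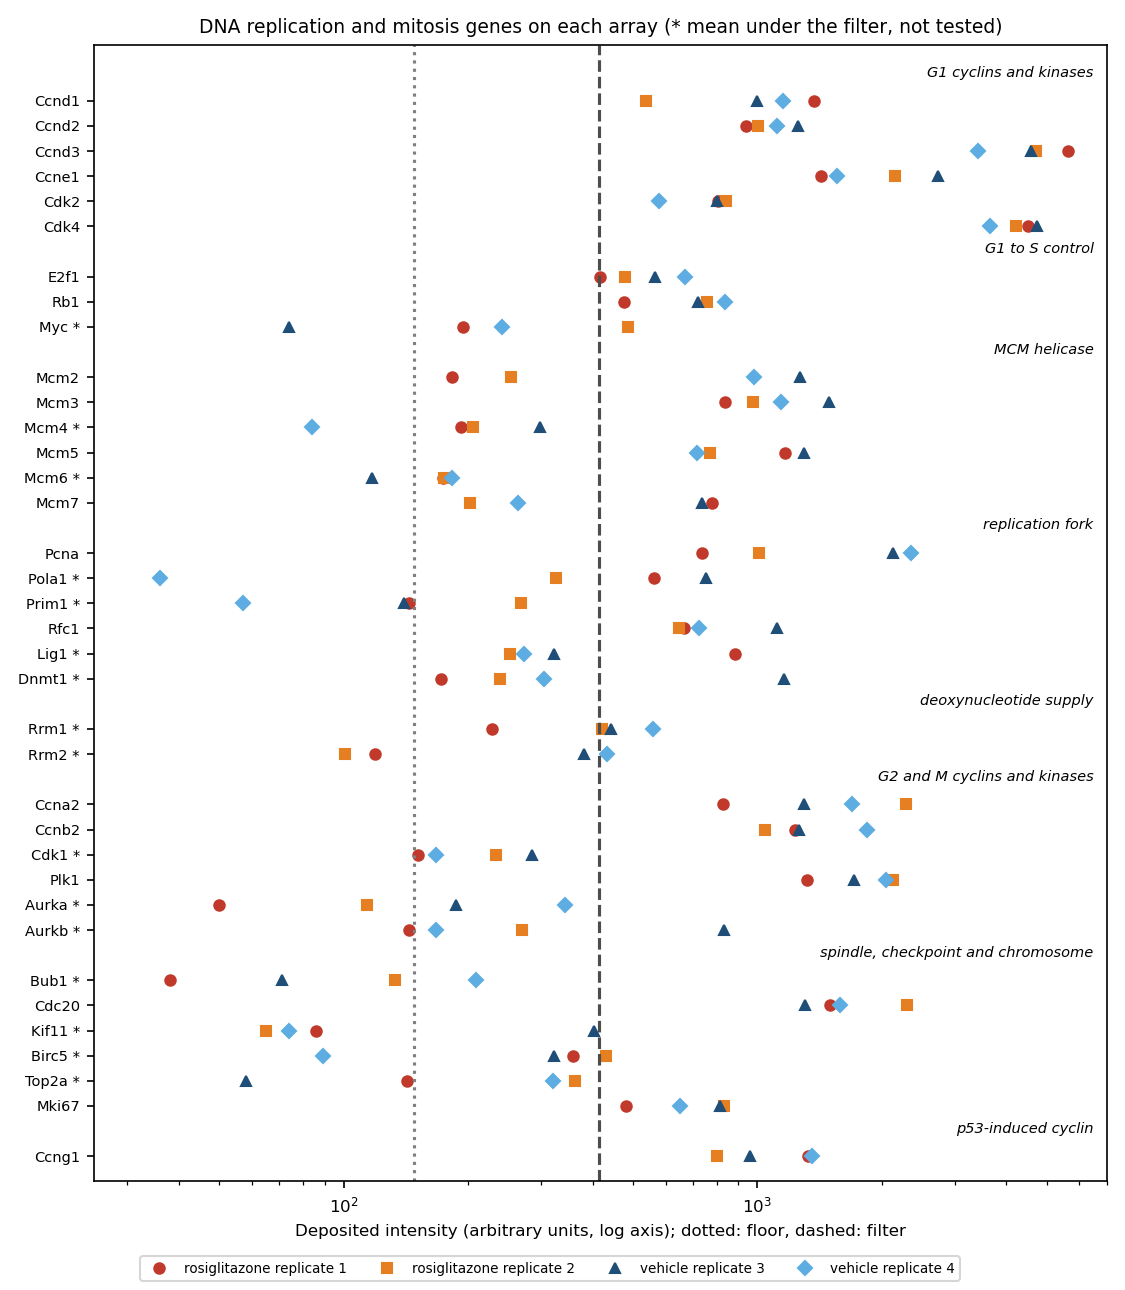
Deposited intensity (arbitrary units, log axis) of the 36 measured genes on the 4 arrays, with 1 point per array, rosiglitazone in red and orange and vehicle in dark and light blue. The dotted line is the floor of 148 and the dashed line the filter of 414; the G1 cyclins and kinases lie to the right of the filter on every array, and the 16 starred genes have a mean to its left.

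Rosiglitazone arrays were compared with vehicle arrays in limma. None of the 20 tested genes (0) passed an adjusted p of 0.05, where 0.384% of 5466 genes on the array did, 0.329% lower and 0.0549% higher. At an unadjusted p under 0.05 there were 2, both lower with rosiglitazone, Mcm2 and Pcna, against 11% of all genes tested in either direction and 5.93% lower. Of the 20 genes 16 had a log2 fold change below 0, or 80.0%, against 51.8% of all genes tested. Their median log2 fold change was -0.22, against -0.02 over all genes tested. The groups did not overlap for 9, against 41.1% of all genes tested, with 7 lower and 2 higher on both rosiglitazone arrays, against 22% lower and 19.1% higher among all genes tested. Only Mcm2 and Pcna of the 7 lower genes differed by at least 1.5-fold, and neither of the higher ones did, against 12.3% lower and 9% higher among all genes tested. These counts describe the genes that passed the filter, and Mcm2 passed it through its vehicle values alone. Over all 36 measured genes, floored at 148, the median difference was -0.21 on the log2 scale and 25 (69.4%) lay below 0, against -0.0017 and 50.0% over all 8251 genes.

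**Figure D2:**
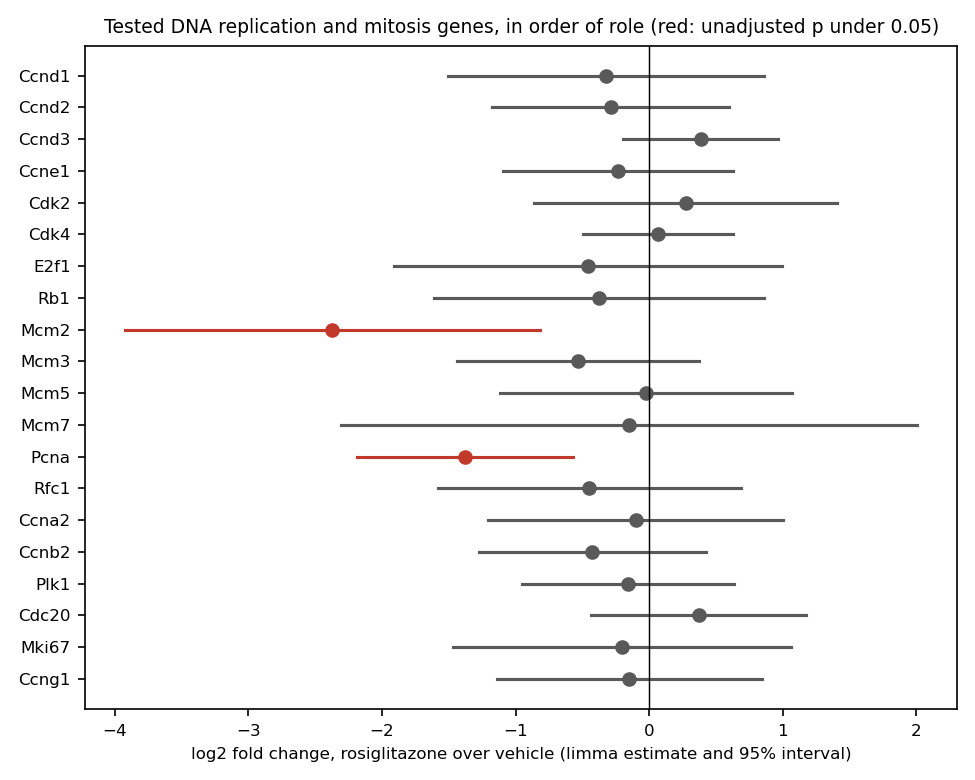
Log2 fold change, rosiglitazone over vehicle, of the 20 tested genes in order of role, with limma's 95% interval as a line. The intervals of Mcm2 and Pcna (red) lie below 0 and those of the other 18 include 0.

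The D-type cyclins couple growth signals to Cdk4, and none of them reached an unadjusted p under 0.05 in limma. Ccnd3 had intensities of 5641 and 4724 after rosiglitazone, against 4577 and 3415 after vehicle. Both rosiglitazone values lay above both vehicle values, by a narrow margin between 4724 and 4577, and the log2 fold change of 0.38 had a 95% interval from -0.19 to 0.96 (limma, adjusted p = 0.636). Ccnd2 had 937 and 1001 after rosiglitazone and 1251 and 1115 after vehicle. It was thus lower on both rosiglitazone arrays, with a log2 fold change of -0.29 and an interval from -1.17 to 0.60. Ccnd1 had 1371 and 538 after rosiglitazone and 997 and 1156 after vehicle, so that the vehicle values lay between the rosiglitazone values. Without rosiglitazone replicate 2 its log2 fold change was 0.35, against -0.32 with all arrays and -0.997 without rosiglitazone replicate 1. The interval with all arrays ran from -1.51 to 0.86. A second tested probe set of Ccnd1 had 286 and 962 after rosiglitazone and 515 and 295 after vehicle. The rosiglitazone arrays thus ranked in opposite order on its 2 probe sets.

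Cdk4, the kinase partner of these cyclins, had 4515 and 4219 after rosiglitazone and 4746 and 3658 after vehicle, with overlapping groups and a log2 fold change of 0.07 (95% interval from -0.50 to 0.63). Cdk2, the partner of E- and A-type cyclins, had 804 and 838 after rosiglitazone and 799 and 577 after vehicle. The groups were separated by 5 intensity units. Ccne1, which activates Cdk2 at the entry into S phase, had 1425 and 2152 after rosiglitazone and 2731 and 1554 after vehicle, with overlap. Of these 6 G1 genes 3 had a fold change above 0 and 3 below.

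E2f1, the activating E2F factor, had 417 and 479 after rosiglitazone and 566 and 667 after vehicle. All 4 values lay close to the filter, both rosiglitazone values were the lower ones, and the log2 fold change was -0.46 with an interval from -1.91 to 0.99 (adjusted p = 0.846). Rb1, which encodes the retinoblastoma protein that restrains E2F, had 476 and 754 after rosiglitazone and 720 and 837 after vehicle, with overlap. Myc, a transcription factor that promotes growth and cell cycle entry, lay under the filter, at 194 and 486 after rosiglitazone and 74 and 242 after vehicle. Its 4 values spanned the floor and the groups overlapped.

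The 6 subunits of the MCM helicase work as 1 ring, and 4 of them passed the filter, all with a log2 fold change below 0. Mcm2 had 183 and 254 after rosiglitazone, against 1265 and 983 after vehicle. Both rosiglitazone values lay under the filter and both vehicle values well above it, so the size of the difference depends on how dim values are treated. Mean log2 intensity was 7.75 ± 0.33 after rosiglitazone and 10.12 ± 0.26 after vehicle (n = 2 arrays each, SD), a 5.17-fold difference with a log2 fold change of -2.37 and a standard error of 0.69 (unadjusted p = 0.00718 and adjusted p = 0.219 in limma). The 95% interval ran from -3.92 to -0.82, and with any 1 array left out the log2 fold change lay between -2.61 and -2.13. With the floor raised to the 40th percentile it was -1.43.

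Mcm3 had 834 and 978 after rosiglitazone and 1494 and 1139 after vehicle. It was lower on both rosiglitazone arrays, at a log2 fold change of -0.53 with an interval from -1.44 to 0.38. Mcm5 had 1165 and 769 after rosiglitazone and 1296 and 714 after vehicle. The groups overlapped, and its log2 fold change of -0.02 turned to 0.060 when array medians were set equal. Mcm7 had 779 and 202 after rosiglitazone and 733 and 264 after vehicle, so each group held 1 high and 1 low array. Mcm4 and Mcm6 lay under the filter. Mcm4 had 192 and 205 after rosiglitazone and 299 and 84 after vehicle, and Mcm6 had 174 and 175 after rosiglitazone and 117 and 183 after vehicle. For both, 1 vehicle array lay under the floor and the groups overlapped. Whether Mcm2 differed from the other subunits in its response was not tested.

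Pcna encodes the sliding clamp that tethers DNA polymerases. It had 735 and 1009 after rosiglitazone, against 2130 and 2354 after vehicle. All 4 values were above the filter, and the higher rosiglitazone value was under the lower vehicle value by a wide gap. Mean log2 intensity was 9.75 ± 0.32 after rosiglitazone and 11.13 ± 0.10 after vehicle (n = 2 arrays each, SD), a 2.60-fold difference with a log2 fold change of -1.38 and a standard error of 0.36 (limma, unadjusted p = 0.00387, adjusted p = 0.169). Among the 20 tested genes it had the smallest p, and its log2 fold change ran from -1.61 to -1.15 with 1 array left out.

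Rfc1, the large subunit of the loader that places the clamp on DNA, had 666 and 648 after rosiglitazone and 1114 and 723 after vehicle. Its groups were separate, at a log2 fold change of -0.45 with an interval from -1.58 to 0.68. The other fork genes lay under the filter. Pola1, the catalytic subunit of polymerase alpha, had 562 and 326 after rosiglitazone and 751 and 36 after vehicle, the widest of these in its spread within 1 group. Prim1, the primase subunit, had 144 and 269 after rosiglitazone and 140 and 57 after vehicle. Lig1, which joins Okazaki fragments, had 883 and 253 after rosiglitazone and 323 and 273 after vehicle. The groups of Pola1 and Lig1 overlapped. Those of Prim1 did not as deposited, but 3 of its 4 values were under the floor, where values have no order. Dnmt1, the methyltransferase that copies methylation to the new strand, had 172 and 239 after rosiglitazone and 1160 and 305 after vehicle. Both rosiglitazone values were the lower ones, and the gap rested largely on vehicle replicate 3.

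Both subunits of ribonucleotide reductase lay under the filter. Rrm2, the subunit limiting for the S phase supply of deoxynucleotides, had 119 and 101 after rosiglitazone and 381 and 434 after vehicle. Both rosiglitazone values were under the floor and both vehicle values above it, so a fold would rest on the floor and none is given. All 4 values of Rrm2 lay within the range of the bacterial control values. With the filter dropped its adjusted p in limma was 0.284, from a fit in which the floor sets the spread of the rosiglitazone arrays to 0. Rrm1, the large subunit, had 229 and 422 after rosiglitazone and 442 and 560 after vehicle. It was also lower on both rosiglitazone arrays, by a margin of 20 intensity units. The probe sets that Tyms, the thymidylate synthase gene, shares with Tyms-ps had 873 and 378 after rosiglitazone and 527 and 644 after vehicle on one, and 234 and 270 after rosiglitazone and 672 and 146 after vehicle on the other, with overlap on both.

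Both measured cyclins of G2 and mitosis and 1 of their 4 kinases, Plk1, passed the filter. Ccnb2, a B-type cyclin, had 1233 and 1045 after rosiglitazone and 1261 and 1842 after vehicle. It was lower on both rosiglitazone arrays, by 28 intensity units at the nearest pair, and its log2 fold change of -0.43 had an interval from -1.28 to 0.43 (adjusted p = 0.743). Ccna2, cyclin A, had 828 and 2292 after rosiglitazone and 1293 and 1689 after vehicle. The rosiglitazone arrays held its lowest and its highest value, and leaving out rosiglitazone replicate 1 gave a log2 fold change of 0.63 and leaving out replicate 2 gave -0.84. Plk1, the Polo kinase of mitotic entry, had 1321 and 2125 after rosiglitazone and 1711 and 2045 after vehicle, with overlap. Its log2 fold change was -0.16 with an interval from -0.95 to 0.63.

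The remaining mitotic kinases lay under the filter. Cdk1, the kinase that starts mitosis, had 151 and 233 after rosiglitazone and 286 and 167 after vehicle. Aurkb, the Aurora kinase of the chromosomal passenger complex, had 144 and 270 after rosiglitazone and 829 and 167 after vehicle. In both genes the groups overlapped, and vehicle replicate 3 held the highest value. Aurka, the Aurora kinase of the spindle poles, had 50 and 114 after rosiglitazone and 187 and 343 after vehicle. Both rosiglitazone values were under the floor, so a fold would rest on the floor and none is given. All 4 values of Aurka lay within the range of the bacterial control values.

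Among spindle and chromosome genes, Cdc20, which activates the anaphase-promoting complex, had 1497 and 2299 after rosiglitazone and 1303 and 1582 after vehicle. The groups overlapped, and the log2 fold change was 0.37 with an interval from -0.43 to 1.17 (adjusted p = 0.770). Mki67, whose product Ki-67 is the usual histological marker of cycling cells, had 482 and 829 after rosiglitazone and 811 and 652 after vehicle. The groups overlapped, and the log2 fold change of -0.20 had an interval from -1.47 to 1.06. Top2a, the topoisomerase that untangles chromosomes, had 142 and 362 after rosiglitazone and 58 and 321 after vehicle. Each group held 1 value above and 1 value under the floor. Bub1, a spindle checkpoint kinase, had 38 and 133 after rosiglitazone and 71 and 209 after vehicle. Kif11, the motor that separates spindle poles, had 86 and 65 after rosiglitazone and 402 and 74 after vehicle, so that 3 of its 4 values lay under the floor, as did 3 of the 4 for Bub1. Birc5, the passenger protein survivin, had 358 and 431 after rosiglitazone and 323 and 89 after vehicle, and both rosiglitazone values were the higher ones. Ccng1, a cyclin induced by p53 with no established role as a driver of the cycle, had 1324 and 800 after rosiglitazone and 960 and 1354 after vehicle. Its groups overlapped, at a log2 fold change of -0.15 with an interval from -1.14 to 0.84 (adjusted p = 0.936).

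Vehicle replicate 3 held the highest of the 4 values for 13 of the 36 genes (36.1%), against 25.7% of all genes. Vehicle replicate 4 held it for 10, rosiglitazone replicate 2 for 9 and rosiglitazone replicate 1 for 4, or 11.1% for the last against 23.2% of all genes. Median intensity over the array was 590 and 620 after rosiglitazone and 647 and 634 after vehicle, without the control probe sets. For actin the 3′ signal over the 5′ signal, a gauge of RNA integrity, was 7.74 and 9.62 after rosiglitazone and 8.88 and 11.9 after vehicle, with overlap. For Gapdh it was 8.79 and 10.8 after rosiglitazone and 11.08 and 11.10 after vehicle, lower on both rosiglitazone arrays. Both ratios were 7.74 or higher on all 4 arrays, so signal was strongly weighted to the 3′ end in both groups. The part of this 3′ weighting in dim probe sets, or in probe sets of a gene that disagree, was not tested. The part of these array differences in the values above was not tested either.

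Several genes were read by more than 1 probe set, and these often differed. Of the 36 genes 14 had several, with 16 further probe sets, of which 13 lay under the filter. For 7 of the 10 tested genes with several, every other probe set was under the filter. Mki67 is such a case. Its second probe set had 53 and 174 after rosiglitazone and 223 and 295 after vehicle, under the filter on every array. The second probe set of E2f1 had 102 and 51 after rosiglitazone and 68 and 157 after vehicle, and that of Mcm3 had 107 and 101 after rosiglitazone and 438 and 90 after vehicle, so 3 of 4 values were under the floor in each. That of Rfc1 had 242 and 175 after rosiglitazone and 138 and 59 after vehicle, higher on both rosiglitazone arrays where the probe set used for Rfc1 was lower on both. That of Cdk4 had 169 and 158 after rosiglitazone and 755 and 255 after vehicle, lower on both rosiglitazone arrays although the probe set used had overlapping groups. For Rb1 it had 33 and 10 after rosiglitazone and 124 and 367 after vehicle. As deposited the Rb1 values were also lower on both rosiglitazone arrays, but 3 of 4 values were under the floor, where values have no order. The probe sets used for E2f1, Mcm3, Mcm5, Plk1 and Mki67 carry suffixes that the manufacturer gives to designs with shared, grouped or relaxed probe selection. The other 15 tested genes rest on plain designs, Mcm2 and Pcna included.

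Plk1 had 3 probe sets that disagreed. Against the values above, the second had 595 and 913 after rosiglitazone and 1340 and 2597 after vehicle, with separate groups and a log2 fold change of -1.34 (95% interval from -2.37 to -0.31, limma, adjusted p = 0.316). The third lay under the filter, at 133 and 226 after rosiglitazone and 835 and 576 after vehicle. Both further probe sets were lower on both rosiglitazone arrays, while the brightest had overlapping groups. All 3 probe sets of Plk1 carry suffixes, so none of them is a plain design. The second probe sets of Mcm5 and Ccnd1 were tested as well and had overlapping groups, at log2 fold changes of -0.39 and 0.43. The second probe set of Cdk2 had 422 and 345 after rosiglitazone and 93 and 86 after vehicle, with both vehicle values under the floor and a mean under the filter.

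**Figure D3:**
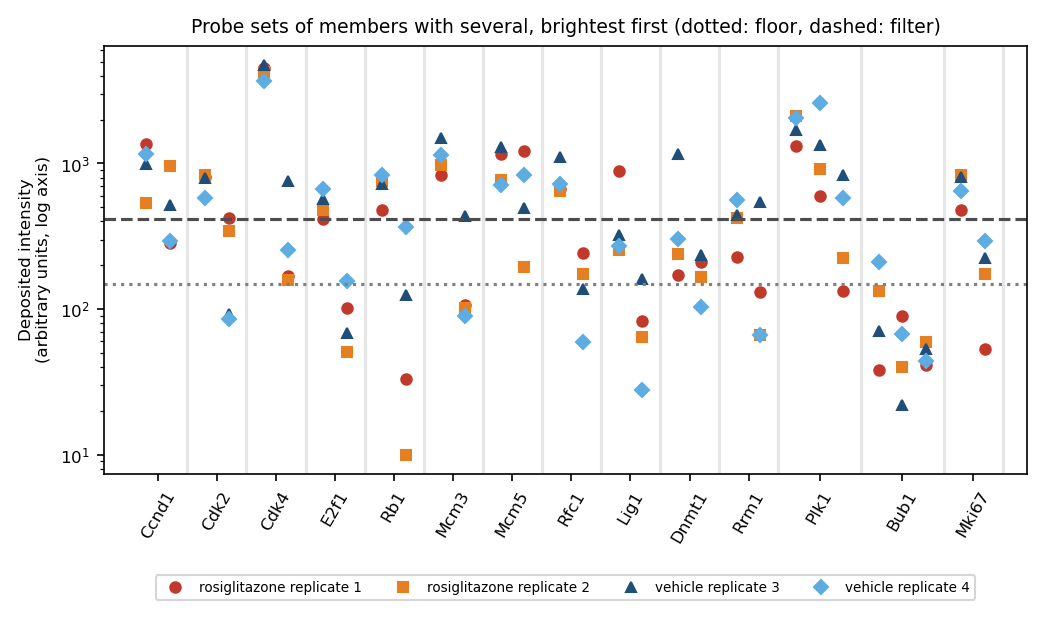
Deposited intensity (arbitrary units, log axis) of each probe set of the 14 genes with several, brightest first within a gene, with 1 point per array. Most further probe sets lie under the dashed filter line at 414, and the 3 probe sets of Plk1 differ in how far the rosiglitazone arrays (red, orange) lie under the vehicle arrays (blue).

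The promoters of these genes are shown because promoters of cell cycle genes are known to share binding sites for E2F, for the trimer NF-Y and for the complexes that read the cell cycle homology region (CHR). RefSeq's table on build GRCm38.p6 held 29 of the 36 genes, and the 250 bases before the first listed start were searched on both strands. An E2F core, TTTCGCGC or TTTGGCGC, was found in 4 of 29 (13.8%), against 0.673% of 27025 genes. The NF-Y box CCAAT was found in 23 (79.3%), against 34.5%, and the CHR TTTGAA in 8 (27.6%), against 16.3%. The 4 genes with an E2F core were Mcm6, Mcm5, Cdk1 and Pola1. Aurkb, Ccna2, Ccnd1, Ccnd2, Mcm4, Myc and Rb1 were not matched. Shown first are the promoters of Mcm2 (chr6:88898781-88899030, minus strand) and Pcna (chr2:132253181-132253430, minus strand), the genes with an unadjusted p under 0.05. Those of Mcm5 (chr8:75109259-75109508, plus strand) and Cdc20 (chr4:118437344-118437593, minus strand), whose groups overlapped, follow them. Each is written along the strand of the gene, with E2F cores, NF-Y boxes and CHRs in capitals on either strand.
Mcm2: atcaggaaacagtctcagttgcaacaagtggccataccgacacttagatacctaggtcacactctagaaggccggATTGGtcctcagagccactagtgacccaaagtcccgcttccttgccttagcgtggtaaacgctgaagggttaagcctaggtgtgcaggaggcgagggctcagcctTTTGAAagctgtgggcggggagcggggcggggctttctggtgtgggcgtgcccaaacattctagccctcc
Pcna: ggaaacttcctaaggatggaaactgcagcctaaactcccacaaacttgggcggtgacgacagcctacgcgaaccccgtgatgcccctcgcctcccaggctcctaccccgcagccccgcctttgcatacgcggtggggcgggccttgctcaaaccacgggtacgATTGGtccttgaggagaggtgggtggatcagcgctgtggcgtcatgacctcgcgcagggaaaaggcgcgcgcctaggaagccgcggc
Mcm5: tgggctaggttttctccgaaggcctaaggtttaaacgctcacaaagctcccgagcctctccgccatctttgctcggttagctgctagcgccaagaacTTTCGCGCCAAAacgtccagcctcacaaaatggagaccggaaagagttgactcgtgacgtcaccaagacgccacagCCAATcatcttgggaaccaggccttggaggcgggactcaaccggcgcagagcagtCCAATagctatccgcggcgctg
Cdc20: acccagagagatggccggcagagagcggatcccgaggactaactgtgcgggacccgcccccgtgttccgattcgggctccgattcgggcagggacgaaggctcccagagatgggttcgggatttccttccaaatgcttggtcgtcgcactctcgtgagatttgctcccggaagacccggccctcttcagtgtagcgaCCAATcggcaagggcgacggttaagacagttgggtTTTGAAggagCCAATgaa

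Mcm2 held 1 NF-Y box, 175 bases before the start and reading on the opposite strand, and 1 CHR at 70 bases. Pcna held 1 NF-Y box on the opposite strand at 87 bases. Mcm5 held 2 E2F cores on opposite strands that overlap each other, the outer one beginning 153 bases before the start, and NF-Y boxes at 77 and 22 bases. Cdc20 held NF-Y boxes at 53 and 8 bases and a CHR at 18 bases. A match is a description of these letters and not evidence of binding.

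Other replication and mitosis genes gave no common direction. A list of 103 further genes had 85 on the array, of which 43 passed the filter (50.6%). None of them (0) passed the threshold in limma, and at an unadjusted p under 0.05 there were 2, both higher with rosiglitazone, where 5.03% of all genes tested were. Of the 43 genes 22 had a log2 fold change below 0, with a median of -0.08. Pola2, the regulatory partner of Pola1, had 1200 and 1958 after rosiglitazone and 227 and 982 after vehicle, a log2 fold change of 1.70 (limma, adjusted p = 0.413) that was 0.64 without vehicle replicate 3 and 2.76 without vehicle replicate 4. Nek2, a centrosome kinase, had 1237 and 1454 after rosiglitazone and 532 and 780 after vehicle, at 1.06 (adjusted p = 0.435). Both had separate groups. Dctpp1, which hydrolyses dCTP, came next among the higher genes at 0.86, with a further probe set at 1.46.

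The 3 further genes with the smallest p below 0 did not pass either. Kif23, a motor of the central spindle, had 744 and 184 after rosiglitazone and 1703 and 632 after vehicle, with overlap, at a log2 fold change of -1.49 (adjusted p = 0.559). Incenp, the scaffold of the chromosomal passenger complex, had 816 and 637 after rosiglitazone and 1522 and 963 after vehicle, at -0.75 on this probe set and 0.65 on a further one. Foxm1, the factor that drives genes of G2 and mitosis, had 1289 and 3794 after rosiglitazone and 3980 and 3370 after vehicle, at -0.73, and 0.051 without rosiglitazone replicate 1. Its further probe set had 0.41. None of the 3 thus had separate groups on all its tested probe sets. The log2 fold change of Kif23 stayed below 0 with any 1 array left out, from -2.50 to -0.48. By class, 3 of 6 tested genes of origin licensing and firing lay below 0, 5 of 12 of fork and repair synthesis, 0 of 3 of nucleotide supply, 3 of 4 of cell cycle transcription, 1 of 4 cyclins, kinases and phosphatases, 8 of 12 of mitosis and cytokinesis and 2 of 2 of S phase chromatin, where 51.8% of all genes tested did.

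Markers of several cell types differed on the same arrays. All 7 measured smooth muscle markers and all 8 endothelial markers were above the filter. Summed over its list, the intensity of 10 macrophage markers was 20743 and 20569 after rosiglitazone and 58651 and 63734 after vehicle, and all 9 tested ones lay below 0 (median log2 fold change -1.09). That of 7 neutrophil markers was 5573 and 6491 after rosiglitazone and 126526 and 193130 after vehicle, with 5 of 6 tested below 0. S100a8 and S100a9 carried most of that sum, and the other 5 markers summed to 3882 and 3409 after rosiglitazone and 5098 and 5679 after vehicle. The intensity of 8 lymphocyte markers summed to 4079 and 3569 after rosiglitazone and 4648 and 5310 after vehicle. Of the 4 tested 3 lay below 0. The lower lymphocyte sum rested largely on Cd79a, at 406 and 314 after rosiglitazone and 1315 and 1609 after vehicle. Ptprcap ran the other way, at 1618 and 1538 after rosiglitazone and 494 and 1267 after vehicle. All 3 lists summed lower on both rosiglitazone arrays, although the lymphocyte markers did not share a direction.

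Erythroid markers, 6 in number, summed to 507470 and 669832 after rosiglitazone and 564339 and 658452 after vehicle, with overlap, and 3 of 5 tested lay below 0. Most of that sum was the globin gene Hba-a1, and without it the other 5 summed to 39983 and 53409 after rosiglitazone and 70476 and 89272 after vehicle, lower on both rosiglitazone arrays. The 7 smooth muscle markers summed to 52943 and 58321 after rosiglitazone and 111684 and 134147 after vehicle, and all 7 lay below 0. The 7 fibroblast markers, at 91002 and 106870 after rosiglitazone and 143303 and 171187 after vehicle, all lay below 0 as well. Endothelial markers overlapped, at 25475 and 32575 after rosiglitazone and 29675 and 36957 after vehicle, with 6 of 8 below 0. Brown adipocyte markers, 7 in number, summed to 408763 and 445915 after rosiglitazone and 291753 and 286971 after vehicle, and 6 of 6 tested lay above 0. The 5 white adipocyte markers summed to 200711 and 222120 after rosiglitazone and 143933 and 154672 after vehicle, with 3 of 5 above 0. Most of that sum was Adipoq, at 165554 and 195068 after rosiglitazone and 125080 and 136822 after vehicle. Lipe and Agt also lay above 0, at log2 fold changes of 1.10 and 0.34. Lep and Retn lay below 0, at -0.14 and -1.51. No list had a marker under the floor on all 4 arrays (0). The part of these cell types in the values of Mcm2, Pcna, Rrm2 and the other genes was not tested.

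**Figure D4:**
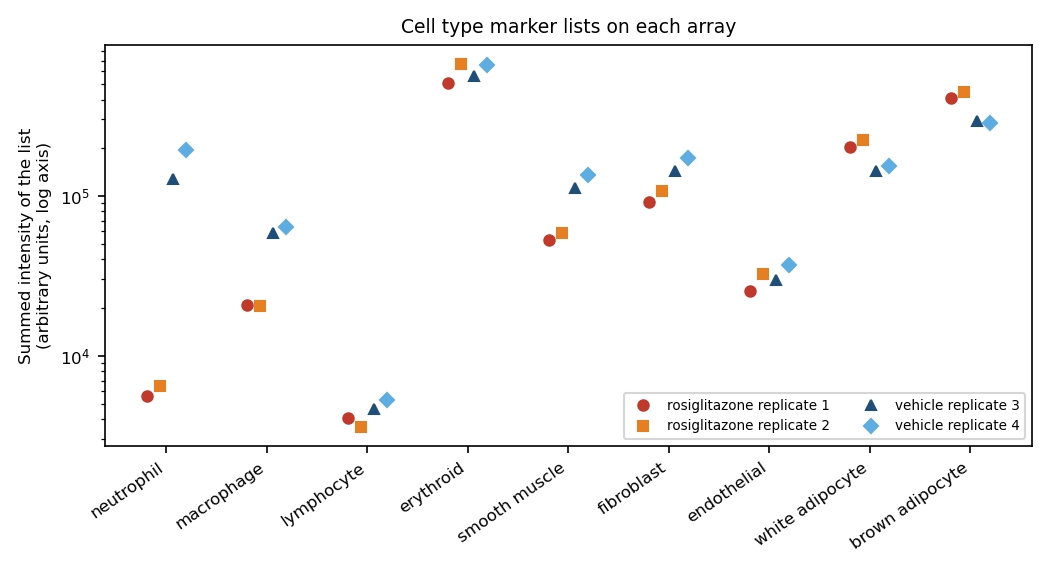
Summed deposited intensity (arbitrary units, log axis) of each marker list on the 4 arrays, with 1 point per array, rosiglitazone in red and orange and vehicle in blue. Neutrophil (mostly S100a8 and S100a9), macrophage, lymphocyte, smooth muscle and fibroblast sums are lower on both rosiglitazone arrays. The lymphocyte markers do not share a direction. Adipocyte sums are higher on both rosiglitazone arrays, the white one being mostly Adipoq. Erythroid sums (mostly Hba-a1) and endothelial sums overlap.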

How the data were processed

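The values that the authors deposited are linear intensities, as whole numbers. The sources used here do not give their software, background correction or scaling. From the values, the mean with 2% trimmed at each end was 1501 on each of the 4 arrays. Probe sets were named from GEO's platform annotation, and symbols were looked up by gene identifier in a GRCm38.p6 table, in which 0 changed. Of 12488 probe sets 66 controls were left out. Intensities under 148 were set to 148, log2 was taken, and 7134 probe sets with a mean at or above 414 were tested in R 4.3.3 with limma 3.58.1 (lmFit, eBayes with an intensity trend, residual degrees of freedom 2, median prior 7.14), two-sided, with Benjamini-Hochberg adjustment over all 7134. In all, 26 probe sets passed. The number of arrays limits the precision, and an exact permutation of the 4 arrays could not go below p = 0.333. The procedure was tested on simulated data in which the changes were larger than that of any list gene. That test does not show how it performs on changes of the sizes reported here. The naming rule asked for array values of tested members whose groups do not overlap, the brightest tested of each role, the D-type cyclins, the MCM subunits and Mki67; they are given for every member. Of the further genes, the 3 with the smallest p in each direction are named. Members and lists were chosen with earlier results of these data known. Alternatives changed the scaling, floor, filter, variance trend, probe set per gene and arrays used.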

Additional observations from a re-analysis of the deposited data

How the results depend on the processing

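No replication or mitosis gene on the list (0), and none of the further ones (0), passed the threshold in limma under any alternative run. With all arrays kept, 1 to 3 list genes had an unadjusted p under 0.05 in limma. There were 2 of 20 with arrays centred, against 799 of 7136 probe sets on the array. The filter at the 60th percentile gave 1 of 13, against 620 of 4715 probe sets. Without the filter and with the floor at the 40th percentile there were 3 of 36, against 1202 and 933 of 12422. Mcm2 and Pcna kept their sign wherever they were tested, but Mcm2 was -1.43 with the floor at the 40th percentile, against -2.37. The probe sets past the threshold on the whole array numbered 17 with each array centred on its median, 7 without the intensity trend, 0 with the floor at the 40th percentile and 0 without the filter, where 933 and 1202 of 12422 had an unadjusted p under 0.05, and from 1 to 78 with 1 array left out. That floor equals the filter, so both settings tested all 36 list genes; the filter at the 60th percentile left 13. List genes below 0 numbered 20 of 36 with the higher floor, 25 of 36 without the filter, 10 of 13 with the stricter one, and 12 to 15 of 20 with 1 array left out, the 12 without either rosiglitazone array. Their median log2 fold change was -0.13 with arrays centred, where that of all genes tested was 0.062. With the higher floor, which sets dim values equal, it was -0.068, against 0 for all genes tested. With 1 array left out it ran from -0.38 to -0.25, against -0.056 to 0.0061 for all genes tested. With plain probe set designs alone, an alternative chosen after seeing the data, 12 of 16 were below 0 with a median of -0.26.

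The sign of Mcm5 turned with arrays centred (0.060) and with quantile normalization (0.036), and that of Mcm7 with the higher floor (0.044). Mcm5 started near 0, at -0.02, and centring raised it and Ccnd3 alike, the latter from 0.38 to 0.47. For Mcm7 the higher floor set 202 after rosiglitazone and 264 after vehicle equal, which left 779 against 733. With 1 array left out the sign also turned for Cdk4 (from -0.12 to 0.25), Ccne1 (-0.64 to 0.17), Plk1 (-0.50 to 0.18), Ccna2 (-0.84 to 0.63), Ccng1 (-0.51 to 0.22), Ccnd1 (-0.997 to 0.35), Mcm5 (-0.45 to 0.41), Mki67 (-0.59 to 0.19), Mcm7 (-1.12 to 0.82) and Foxm1 (-1.51 to 0.051). In those fits the lone array of a group is assumed to vary like the other group. No paired analysis was possible because the labels give the groups no shared replicate numbers. Signal near background limits the 16 genes under the filter, whose values are given without a fold.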
